A study of Homo sapiens with 2 samples.

Results

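The 10 genes described here were RELA, RELB, REL, NFKB1 and NFKB2, which encode the 5 subunits of NF-kB, and TNFAIP3, NFKBIA, TNIP1, BIRC3 and TRAF1, which NF-kB is known to induce and which act on the same pathway. They were chosen by name from 20037 protein-coding genes of the RefSeq annotation of GRCh38, and a peak was assigned to a gene when it lay inside it or within 50 kb of either end. Chromatin of untreated MDA-MB-231 cells, a human triple-negative breast cancer line, was profiled by CUT&Tag according to the authors' methods. In this assay an antibody directs a transposase to the DNA around its target. The sample labels describe end repair and adaptor ligation, so the library preparation is uncertain. The 2 libraries differed in the antibody, which was against RUNX2, a DNA-binding Runt-family transcription factor, in one and against MTA1, a subunit of the nucleosome remodelling and deacetylase complex, in the other. Neither antibody had a replicate library, and a control was not analysed here, so no p-value was computed and every value below is that of a single list. The RUNX2 list held 61700 peaks on nuclear chromosomes and the MTA1 list 42683, of which 81 and 70 lay in the windows of the 10 genes.

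NF-kB is a family of dimeric transcription factors that cells keep inactive in the cytoplasm by binding them to inhibitors of the IkB family or by leaving the precursor forms of NFKB1 and NFKB2 unprocessed. Cytokines such as TNF activate kinases that remove these inhibitors, the dimers enter the nucleus, and among the genes they switch on are their own inhibitors, which ends the response. Basal-like breast cancer lines, MDA-MB-231 among them, are known for NF-kB activity without an added stimulus.

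The DNA before the starts of 6 of these genes is shown first, because it holds matches to the NF-kB consensus at peaks. Matches lay under peaks of both lists in TNFAIP3, REL, BIRC3 and TNIP1. In NFKBIA and NFKB2 matches lay under an MTA1 peak alone, and a RUNX2 peak of NFKB2 ended just short of them. The peak positions fitted GRCh38, although the submitters' processing notes name hg19, and all positions are counted from 1. Each line gives the 250 bases before a start in the promoter list used here, on GRCh38. It runs 5′ to 3′ in the direction of the gene, in lower case. Capitals mark matches to the NF-kB consensus on either strand and to TGTGGT, the core bound by Runt-family factors.
TNFAIP3, chr6:137867009-137867258, plus strand: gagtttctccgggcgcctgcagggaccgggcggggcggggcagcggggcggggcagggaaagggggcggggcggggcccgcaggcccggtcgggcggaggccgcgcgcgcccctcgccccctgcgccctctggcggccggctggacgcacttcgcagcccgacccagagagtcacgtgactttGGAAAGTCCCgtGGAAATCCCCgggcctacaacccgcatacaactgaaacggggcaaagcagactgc
REL, chr2:60881324-60881573, plus strand: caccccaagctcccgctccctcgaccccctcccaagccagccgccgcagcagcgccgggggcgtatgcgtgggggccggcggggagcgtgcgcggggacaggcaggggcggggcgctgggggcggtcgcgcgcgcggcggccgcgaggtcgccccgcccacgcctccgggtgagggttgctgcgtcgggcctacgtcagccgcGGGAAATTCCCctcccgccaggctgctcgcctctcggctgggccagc
BIRC3, chr11:102317234-102317483, plus strand: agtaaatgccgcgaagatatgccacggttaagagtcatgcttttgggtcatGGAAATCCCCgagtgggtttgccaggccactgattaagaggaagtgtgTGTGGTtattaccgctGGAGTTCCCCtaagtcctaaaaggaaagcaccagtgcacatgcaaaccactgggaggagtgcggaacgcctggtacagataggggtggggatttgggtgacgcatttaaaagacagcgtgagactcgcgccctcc
TNIP1, chr5:151081035-151081284, minus strand: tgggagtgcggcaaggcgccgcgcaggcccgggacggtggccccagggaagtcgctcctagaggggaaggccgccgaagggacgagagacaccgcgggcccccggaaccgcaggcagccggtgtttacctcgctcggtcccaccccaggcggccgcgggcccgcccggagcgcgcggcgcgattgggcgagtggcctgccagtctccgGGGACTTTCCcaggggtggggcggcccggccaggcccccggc
NFKBIA, chr14:35404750-35404999, minus strand: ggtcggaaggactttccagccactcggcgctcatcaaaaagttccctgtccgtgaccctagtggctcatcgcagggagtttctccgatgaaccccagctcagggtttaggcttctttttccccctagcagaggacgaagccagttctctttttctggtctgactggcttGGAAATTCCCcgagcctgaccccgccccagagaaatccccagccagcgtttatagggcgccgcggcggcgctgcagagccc
NFKB2, chr10:102394328-102394577, plus strand: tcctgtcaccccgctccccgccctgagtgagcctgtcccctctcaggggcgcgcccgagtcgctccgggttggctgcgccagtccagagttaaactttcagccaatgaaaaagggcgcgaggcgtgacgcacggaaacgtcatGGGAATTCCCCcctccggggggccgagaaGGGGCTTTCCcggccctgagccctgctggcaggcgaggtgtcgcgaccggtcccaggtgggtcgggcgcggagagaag

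The NF-kB consensus was matched in 300-base windows that also took in the 50 bases after each start. It lay in 8 of the 16 windows of 9 of the genes and in the windows of 7 genes, namely TNFAIP3, NFKBIA, REL, NFKB1, NFKB2, BIRC3 and TNIP1, against 11.3% of all 35116 windows and 15.9% of 15843 protein-coding genes with a window. RELA and TRAF1 had no match, and RELB had no listed window. A match was counted as under a peak when all its bases were. In 4 genes a match lay under a peak of both lists. In TNFAIP3 the matches began 67 and 55 bases before the start, in REL 47 and 46, in TNIP1 42, and in BIRC3 135. BIRC3 had another match 199 bases before its start that was under the RUNX2 peak and crossed the edge of the MTA1 peak. In NFKBIA, 81 bases before the start, and in NFKB2, 107 and 106 bases before the start printed above, the matches lay under MTA1 peaks and outside RUNX2 peaks. The RUNX2 peak at NFKB2 ended at base 102394461, and these 2 matches began at 102394471 and 102394472. NFKB2 had 3 further matches that were under neither list, of which the one 78 bases before the printed start crossed the edge of the MTA1 peak and the others lay 176 and 21 bases before its last start. The match 176 bases before, at 102395529 to 102395538, lay between an MTA1 peak ending at 102395526 and a RUNX2 peak beginning at 102395547. The match of NFKB1, 49 bases before its most upstream start, was also under neither.

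Counted once for each position, 14 matches were found in these windows, 7 of them wholly in a RUNX2 peak, 9 in an MTA1 peak, 6 in both and 4 in neither. Overlapping matches shifted by a single base, as in REL and NFKB2, counted apart, here and over all windows. Over the 4313 matches in all windows, 17.5% were in a RUNX2 peak, 19.9% in an MTA1 peak and 13.7% in both. These windows were touched more often than the list as a whole: RUNX2 peaks touched 9 of the 16 and MTA1 peaks 10, against 29.2% and 31.2% of all windows. All windows include those of non-coding genes, which the 16 do not. No share over windows of protein-coding genes alone is set beside these touched windows or the matches above. Among all windows, those with a match were touched by RUNX2 peaks in 33.1% of cases and those without in 28.7%, and by MTA1 peaks in 35.7% and 30.6%. The TGTGGT core, searched on both strands, was in 2 of the 16 windows and 2 of the 9 genes, against 13.1% of all windows and 14.5% of protein-coding genes. In these windows it occurred in BIRC3 151 bases before the start and under both peaks, and in TRAF1 17 bases before one of its starts and under neither. TGANTCA, the site of AP-1 factors, was in 7.71% of all windows and in 0 of the 16. No match to one motif shared a base with a match to another in these windows, and a match is a stretch of letters and not a measured site.

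Every one of the 10 genes had a peak of both lists at a start. A peak was counted there when it came within 3 kb of a listed start or, for RELB and other genes with no listed start, within 3 kb of either end of the gene. Among protein-coding genes, RUNX2 peaks were at a start by this rule in 57.2%, MTA1 peaks in 57.3% and peaks of both lists in 50%, and in 46.9% a RUNX2 peak overlapped an MTA1 peak there by at least 1 bp, which also held for all 10 genes. Widened to the whole gene and 50 kb on either side, the background left little room, since RUNX2 peaks were then assigned to 90.8% of protein-coding genes, MTA1 peaks to 86.6% and an overlapping pair to 80.1%. All 10 genes had each of these too.

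The best peaks at the starts ranked near those of other protein-coding genes with a peak there. Scores have no stated scale, so a peak is described by the percent of its own list with a lower score, called its percentile. The best peak at the start had a median percentile of 70.3 over the 10 genes for RUNX2 and 74.2 for MTA1, against 71.3 and 74.7 over all protein-coding genes with such a peak. RELB, BIRC3 and TRAF1 had the highest RUNX2 percentiles, 91.7, 93.6 and 88.2, and NFKBIA the lowest, 55.2. For MTA1 the highest was again RELB, at 97.6, and the lowest was TNIP1, at 37.2.

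**Figure D1:**
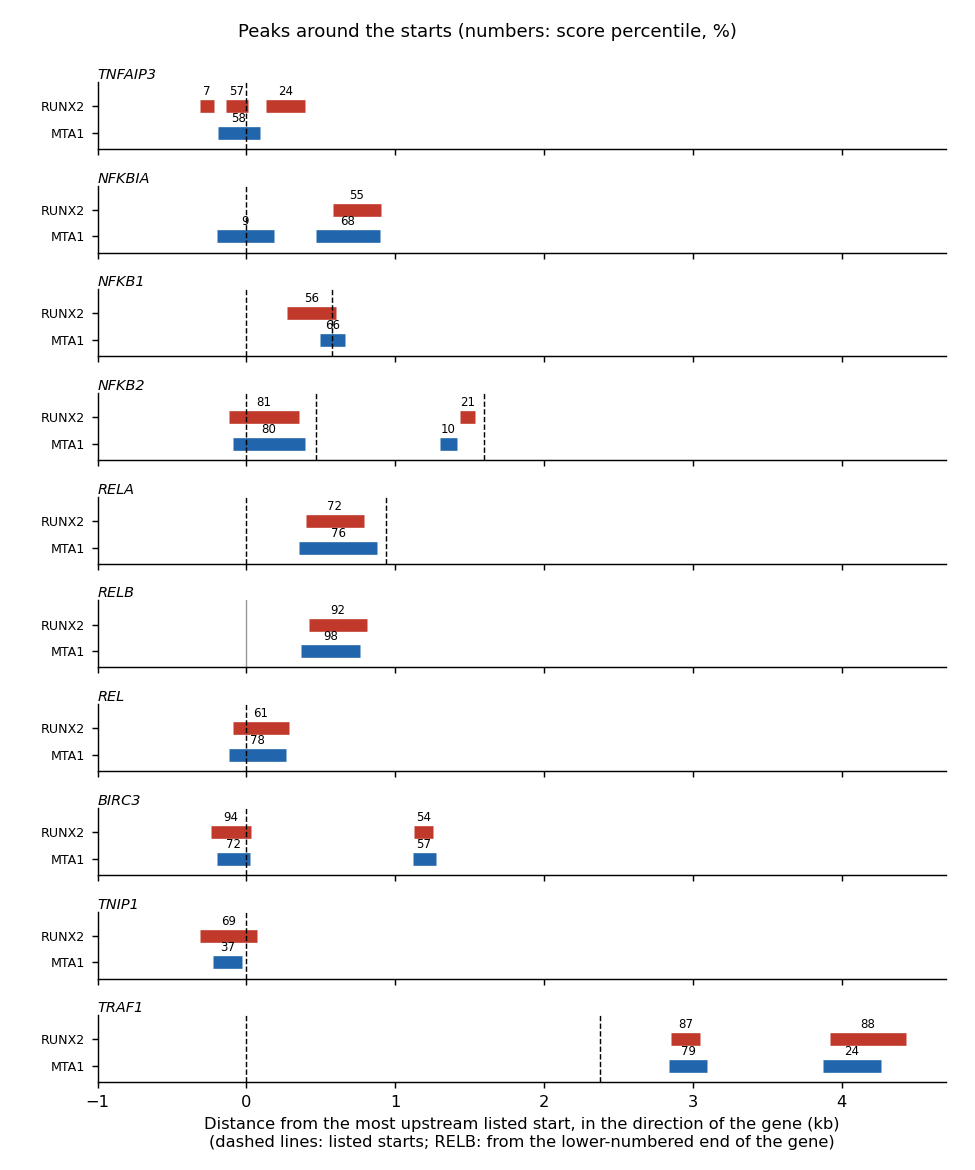
RUNX2 peaks (red) and MTA1 peaks (blue) around the starts of the 10 genes, drawn in the direction of each gene by distance from its most upstream listed start (kb), with dashed lines at listed starts, a grey line at the lower-numbered end of RELB, and numbers giving the percentile of each peak in its own list. At every gene a red and a blue bar overlap, and the blue bar at the start of NFKBIA has no red partner.

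The subunits were not alike. RELA, RELB and REL carry the transactivation domains of the family, and NFKB1 and NFKB2 encode precursors that are cut to the smaller DNA-binding subunits. RELB, which pairs with the processed NFKB2 product in the non-canonical pathway, had the strongest peaks near a start of any of the 5: the RUNX2 peak at chromosome 19, 45001887 to 45002273, scored 25.9 and the overlapping MTA1 peak at 45001829 to 45002230 scored 37.4. A weaker RUNX2 peak, with a score of 6.12, lay at the other end of RELB under an MTA1 peak with a score of 15.5. NFKB2 had a RUNX2 peak with a score of 15.2 at chromosome 10, 102393992 to 102394461, and an MTA1 peak with a score of 15.0 over almost the same bases, 102394019 to 102394504. RELA, the main transactivating partner of the canonical dimer, had a RUNX2 peak with a score of 11.0 at chromosome 11, 65663065 to 65663459, inside an MTA1 peak with a score of 13.4, and these also lay within 3 kb of the start of a divergent non-coding transcript, RELA-DT. The peaks at the starts of REL, NFKB1 and BIRC3 likewise lay within 3 kb of another start, of REL-DT, NFKB1-AS1 and LOC124902739, none listed as protein-coding.

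REL and NFKB1 had few peaks. REL, the haematopoietic member of the family, had 1 RUNX2 peak in its whole window, at its start on chromosome 2, 60881485 to 60881862, with a score of 8.39 and a percentile of 61.3. The MTA1 peak over it scored 14.4, at a percentile of 78.5, and the only other MTA1 peak of the window lay 24.3 kb upstream with a score of 5.15. NFKB1 extended over 116 kb, and the RUNX2 peak at 102501632 to 102501961 on chromosome 4, with a score of 7.26, and the MTA1 peak at 102501855 to 102502019, with a score of 10.3, were the only peaks inside it. They met at the later of its listed starts. The other 4 RUNX2 and 2 MTA1 peaks assigned to NFKB1 lay beyond its far end.

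Several of the strongest peaks in the windows of RELA and NFKB2 stood at the starts of neighbouring genes. In the RELA window, which takes in 4 other protein-coding genes, the RUNX2 peak with a score of 45.5 and the MTA1 peak with a score of 59.0, at percentiles of 98.0 and 99.7, lay at the starts of MAP3K11 and PCNX3, 47.4 kb from a start of RELA. In the NFKB2 window, with 5 other protein-coding genes, the strongest MTA1 peak scored 28.8 and stood at the start of CUEDC2. Over the 5 subunits, 12 of 34 RUNX2 peaks and 11 of 29 MTA1 peaks were within 3 kb of the start of another protein-coding gene. For the inhibitors NFKBIA, TNFAIP3 and TNIP1 these numbers were 1 of 25 and 2 of 25, and for BIRC3 and TRAF1 5 of 22 and 4 of 16. No share over all peaks near protein-coding genes is set beside them, so they are not read as a difference between these groups of genes. The windows differed in their number of neighbouring genes, and its part in these counts was not tested.

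NFKBIA, which encodes the inhibitor that holds RELA dimers in the cytoplasm, was the gene with the most MTA1 peaks. Its window held 12 MTA1 and 8 RUNX2 peaks and no other protein-coding gene. At 3.24 kb it was also the shortest of the 10, and per 100 kb of window it had 11.6 MTA1 peaks, a density above that of 99.0% of protein-coding genes, and 7.75 RUNX2 peaks, above 86.3%. Most of the MTA1 peaks were weak: 10 of the 12 were below the median score of their list.

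Near the NFKBIA start the lists parted. An MTA1 peak with a score of 4.17, at a percentile of 8.76, lay over the start at chromosome 14, 35404560 to 35404949, and covered 250 bases of the promoter window that holds the NF-kB match, and the RUNX2 list had no peak in that window. The paired peaks stood inside the gene, at 35403846 to 35404167 for RUNX2, with a score of 7.2, and at 35403852 to 35404281 for MTA1, with a score of 10.7. The strongest RUNX2 peak of the window was 13.4 kb downstream of the start, with a score of 18.4 and a percentile of 85.4, and the MTA1 peak that overlapped it scored 4.84, at 14.9. A missing peak can be a weak signal under the threshold of its library, so the absence at the start is not a measured absence of RUNX2.

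TNFAIP3, a ubiquitin-editing enzyme that shuts off signalling to the kinases, had few peaks, 4 of RUNX2 and 2 of MTA1, and no other protein-coding gene in its window. Its MTA1 peak at the start, at chromosome 6, 137867072 to 137867348, scored 8.86 and was overlapped by a RUNX2 peak at 137867125 to 137867268 with a score of 7.58. Both NF-kB matches printed above lay in these bases. RUNX2 peaks with scores of 3.63 and 4.87 stood on either side, each 264 bp from the start and neither touching the MTA1 peak. The strongest RUNX2 peak was 34.9 kb upstream, at 137832251 to 137832441, with a score of 25.3 and a percentile of 91.4. The MTA1 peak there scored 5.53, at a percentile of 24.4.

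TNIP1 encodes an adaptor that binds polyubiquitin and brings TNFAIP3 to its targets. Its start, at 151080963 to 151081344 of chromosome 5, had a RUNX2 peak with a score of 9.97, and the MTA1 peak inside it had a score of 6.16, the lowest percentile of an MTA1 peak at a start among the best peaks of the 10 genes. The higher scores were upstream. Between 11.9 and 13.5 kb before this start stood 4 RUNX2 peaks with scores of 27.3, 13.3, 6.54 and 8.34, and 3 of them overlapped MTA1 peaks with scores of 11.3, 17.8 and 4.7. TNIP1 also held 6 of the 7 RUNX2 peaks that were inside one of the 10 genes and away from the listed starts, the seventh being in RELB. The annotated TNIP1 gene begins further upstream than its listed starts. The 6 therefore include peaks 4.72 and 6.64 kb before the start above, of which the latter crossed the upstream end of the gene.

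BIRC3 encodes a ubiquitin ligase that works at the TNF receptor and restrains the non-canonical pathway. It had the highest RUNX2 percentile of any peak at a start of the 10 genes: the peak at chromosome 11, 102317250 to 102317515, scored 29.2 and took in both NF-kB matches and the TGTGGT core printed above, with 266 bases of the 300-base window. The MTA1 peak at 102317288 to 102317510 scored 12.1, at a percentile of 72.4, and took in the core, 1 of the matches whole and the other in part, with 223 bases of that window. A weaker pair lay 1.19 kb from the start, with scores of 6.95 for RUNX2 and 8.53 for MTA1. A further pair, with scores of 17.0 and 16.1, belonged to the start of the neighbouring BIRC2, a paralogue of BIRC3.

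TRAF1, an adaptor that binds TRAF2 and the BIRC ligases, had the most RUNX2 peaks, 14, with 10 of MTA1. Per 100 kb this was 11.0 RUNX2 peaks, above 97.0% of protein-coding genes, and 7.89 MTA1 peaks, above 92.4%. The window took in the start of PHF19, where the strongest peaks of both lists stood, with scores of 42.0 for RUNX2 and 26.8 for MTA1. At TRAF1 itself the RUNX2 peak at chromosome 9, 120926120 to 120926314, scored 20.1 and the MTA1 peak over it 14.7. A RUNX2 peak further into the gene, at 120924736 to 120925248, scored 21.1 at a percentile of 88.2, and its MTA1 partner scored 5.44 at 24.2. Upstream, 6.41 kb from the nearest start, the order was the other way, with 15.3 for RUNX2 at a percentile of 81.2 and 19.0 for MTA1 at 86.4.

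**Figure D2:**
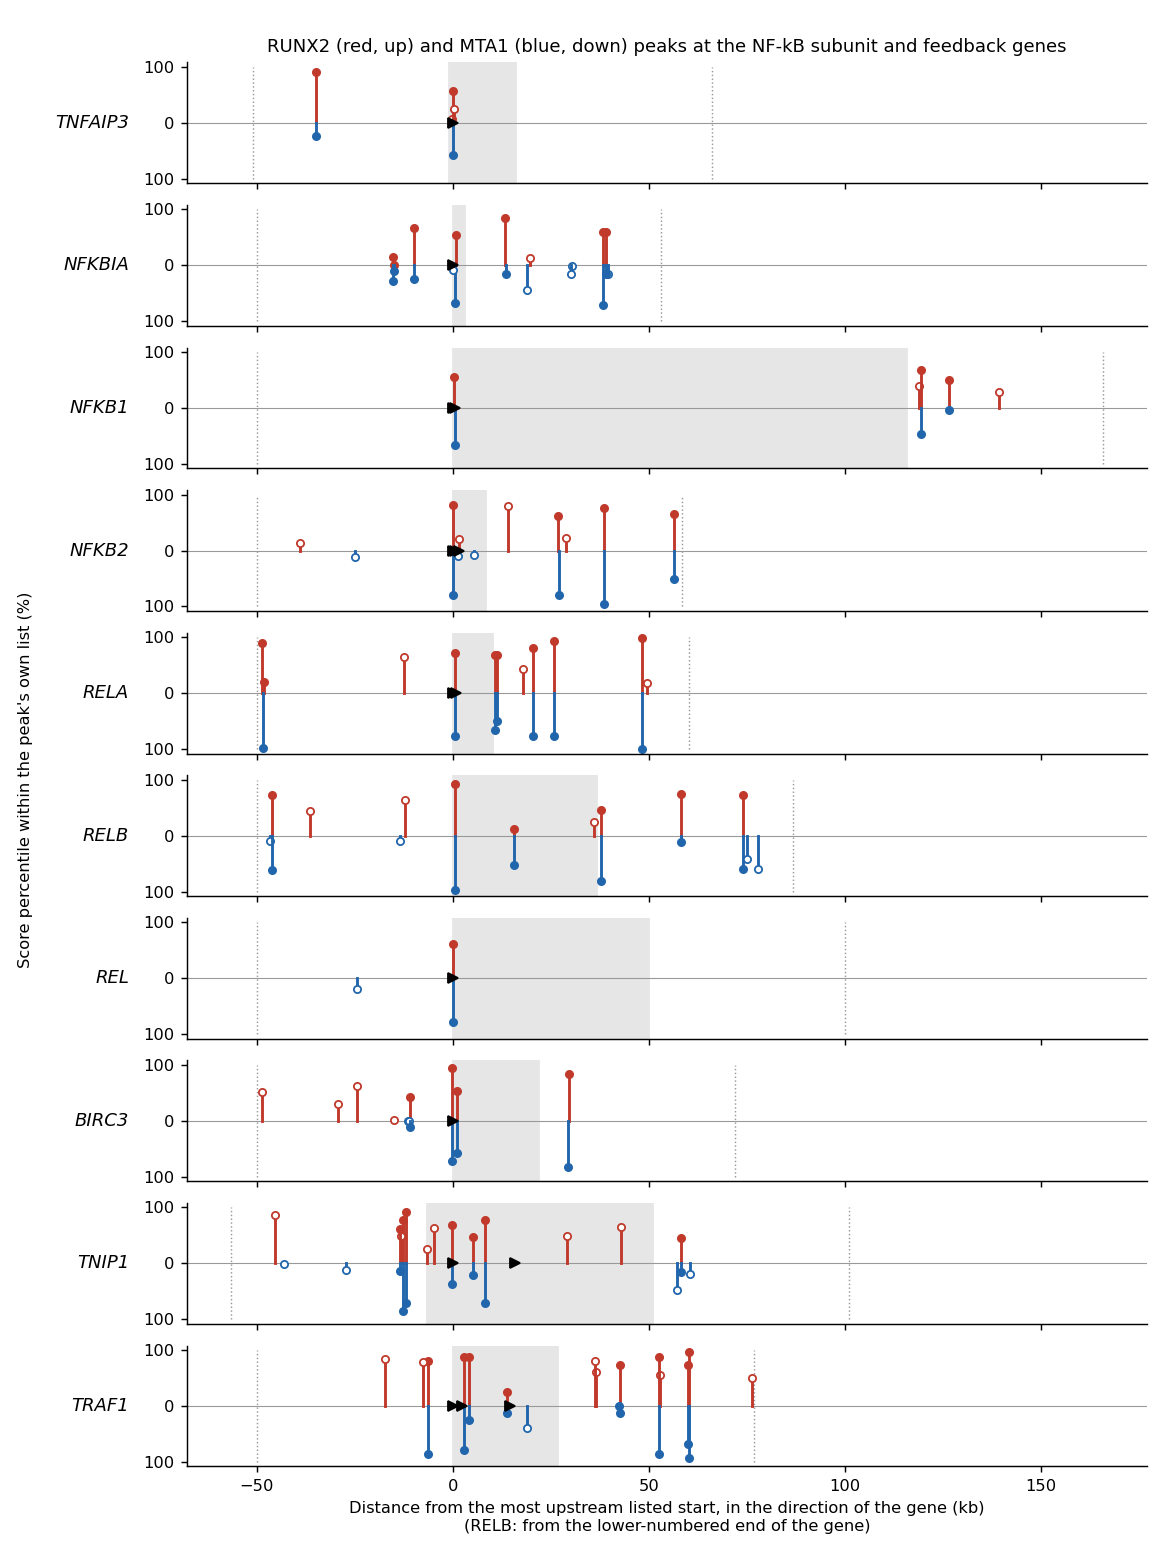
All RUNX2 peaks (red) and MTA1 peaks (blue) of the 10 genes and 50 kb on either side, by distance from the most upstream listed start in the direction of the gene (kb), with the length of each line giving the percentile of the peak in its own list (%), filled points for peaks that overlap the other list, grey shading for the gene, arrowheads for listed starts, dotted lines for the ends of the window, and RELB drawn from its lower-numbered end. NFKB1, REL and TNFAIP3 have long stretches with no peak, and TRAF1 and TNIP1 have peaks along much of their windows. The peaks of NFKBIA lie between 15.5 kb upstream of its start and 39.6 kb downstream.

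Counted together, the 10 genes had from 1 to 14 RUNX2 peaks, with a median of 8.0, and from 2 to 12 MTA1 peaks, with a median of 7.0. The medians over protein-coding genes were 5.0 and 4.0. Windows differ in length with the gene, and per 100 kb the medians were 6.98 RUNX2 and 6.4 MTA1 peaks, against 3.55 and 2.58 over protein-coding genes. The same 7 genes were above the background median in both lists, and TNFAIP3, NFKB1 and REL were below it in both. Other protein-coding genes in the window numbered 4 or 5 for NFKB2, RELA and RELB, 2 for TNIP1 and TRAF1, 1 for NFKB1, REL and BIRC3, and 0 for TNFAIP3 and NFKBIA. The part of neighbouring genes in the densities was not tested.

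**Figure D3:**
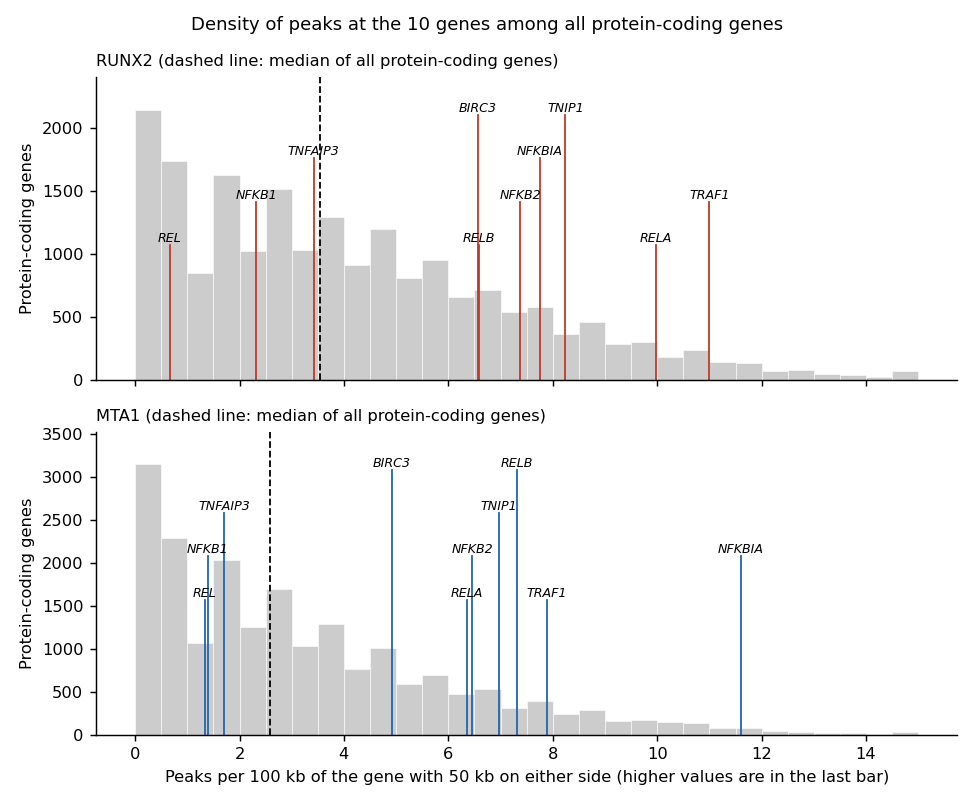
RUNX2 and MTA1 peaks per 100 kb of gene and flanks, with bars for the number of protein-coding genes (of 20037) at each density, a dashed line at their median and a labelled vertical line for each of the 10 genes (the height of these lines has no meaning). REL has the lowest density of the 10 in both lists, TRAF1 the highest for RUNX2 at 11.0 and NFKBIA the highest for MTA1 at 11.6.

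The strongest peaks were not held by all 10 genes. A RUNX2 peak at a percentile of 90 or more lay in the windows of 6 genes, TNFAIP3, RELA, RELB, BIRC3, TNIP1 and TRAF1, against 38.8% of protein-coding genes. For MTA1 there were 4, NFKB2, RELA, RELB and TRAF1, against 38.9%. Of the 7 RUNX2 peaks concerned, 3 stood at the start of another protein-coding gene, and of the 5 MTA1 peaks, 4 did, which left the MTA1 peak of RELB. Over all peaks of the 10 genes the median percentile was 62.5 for RUNX2 and 45.4 for MTA1, where the peaks near any protein-coding gene had medians of 51.1 and 51.5. For MTA1 the direction depended on the setting: within 10 kb of the genes the median was 57.0, against 52.2 near any protein-coding gene, inside the genes it was 57.7, against 52.7, and without peaks of the narrowest width it was 65.8, against 63.7. For RUNX2 the median stayed above that background in the same settings, by the least without the narrowest peaks, 67.8 against 66.1.

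RUNX2 peaks of the 10 genes overlapped an MTA1 peak in 50 of 81 cases, or 61.7% (exact Clopper-Pearson interval 50.3 to 72.3), and MTA1 peaks overlapped a RUNX2 peak in 50 of 70, or 71.4% (59.4 to 81.6). In the whole lists the shares were 45.4% and 65.5%, and among peaks near any protein-coding gene they were 47.6% and 66.7%. The intervals cover counting error alone, and neighbouring peaks are not independent. The overlapping peaks had the higher scores. For RUNX2 their median percentile was 70.3, against 48.6 for the 31 others, and for MTA1 it was 63.2, against 11.8 for the 20 others. Overlapping pairs of the whole lists had median percentiles, at starts and elsewhere, of 72.4 and 72.7 for RUNX2 and 75.4 and 60.1 for MTA1. The higher ranks of overlapping peaks are therefore not read as particular to the 10 genes. Of 18 RUNX2 peaks at the starts 14 overlapped, and of 16 MTA1 peaks 14 did, with peaks at both ends of RELB included. No share over peaks at the starts of all protein-coding genes is set beside these counts, so they are not read as particular to the 10 genes.

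The 51 overlapping pairs, in which a peak with 2 partners counts in each, were then compared by rank, a split by position that was chosen after the values had been seen. At the starts, the MTA1 peak had the higher percentile in 8 of 14 pairs and the RUNX2 peak in 6, with median percentiles of 70.1 and 64.9. The 8 include the pair at the higher-numbered end of RELB, at 80.8 for MTA1 and 45.4 for RUNX2. It was counted because RELB has no listed start. Elsewhere, the RUNX2 peak had the higher percentile in 26 of 37 pairs, with medians of 73.0 for RUNX2 and 59.0 for MTA1. The same turn was present over the whole lists: the RUNX2 peak ranked higher in 42.5% of 10143 pairs at starts and in 65.5% of 18297 pairs elsewhere. The shares in the 10 genes, 42.9% and 70.3%, were near those of the series. Peak centres of a pair were a median of 29.5 bp apart at the starts and 30.5 bp elsewhere.

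**Figure D4:**
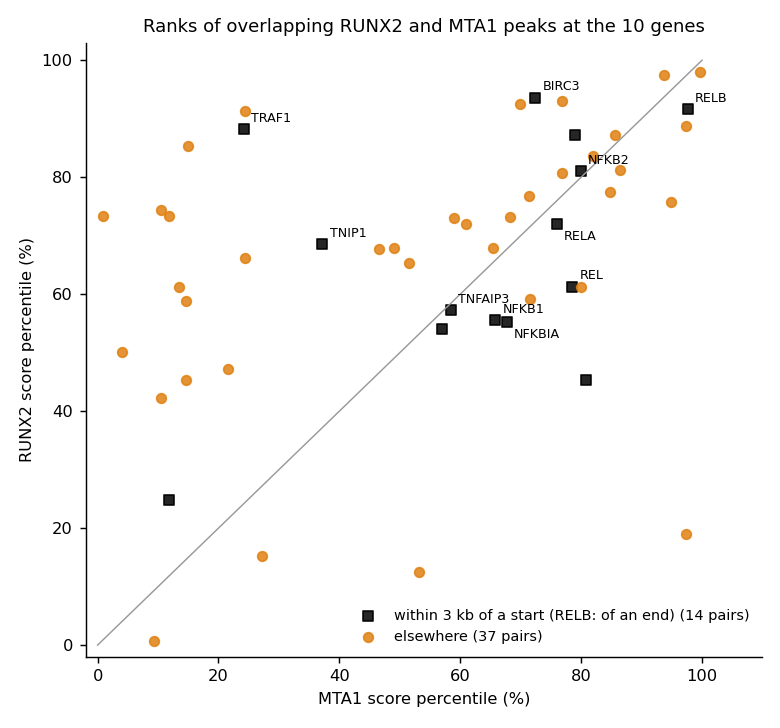
Percentile of the RUNX2 peak (y axis, %) against that of the MTA1 peak (x axis, %) for each overlapping pair of the 10 genes, with pairs at the starts and elsewhere marked apart and a diagonal of equal rank. Pairs away from the starts lie above the diagonal in 26 of 37 cases, and pairs at the starts are divided 6 above and 8 below.

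Other genes of the pathway were read from a list of 30, of kinases and adaptors, further inhibitors, and receptors. Both lists had a peak at a start in 21 of the 30, or 70.0%, against the 50% of protein-coding genes given above. The groups differed in these counts: 14 of 15 kinases and adaptors, 6 of 9 inhibitors and 1 of 6 receptors. TRAF5 was the adaptor without either, TNIP2 and TNIP3 the inhibitors, and TNFRSF1A, TNFRSF1B, CD40 and IL1R1 the receptors. LTBR was the receptor with both, TLR4 had a RUNX2 peak alone and NFKBID an MTA1 peak alone, and these genes were named after their values had been seen. The highest RUNX2 percentiles in a window were found for TRAF6, RIPK1 and BCL3, at 99.8, 99.6 and 99.3. For MTA1 the highest were found for NFKBID, NFKBIB and NFKBIE, at 99.9, 99.8 and 98.9. These peaks were not at the starts of the genes themselves. The best percentiles there were 73.7, 98.6 and 84.3 for RUNX2, and 21.6, 99.4 and 69.4 for MTA1, in the same order. TRAF6 and RIPK1 carry the signal from the receptors to the kinases, and BCL3, NFKBID, NFKBIB and NFKBIE encode members of the IkB family. Whether these peaks stood at the starts of neighbouring genes was not tested. None of the 30 lacked peaks of both lists within 50 kb, and TNIP3 lacked RUNX2 peaks.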

How the data were processed

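According to the authors' methods, MDA-MB-231 cells were profiled in 2 CUT&Tag libraries. The authors deposited 1 peak list per library, with positions and a score per peak, and the scale of the score is not given in the sources used here. Per the labels, the submitters' processing notes name CASAVA 1.4, Bowtie 0.12.8, MACS, MACS2 and hg19, with no role for each. The positions fitted GRCh38: a GRCh38 start was found less than 1 kb away for 18.3% of the RUNX2 list and 25.5% of the MTA1 list, against at most 3.31% after a shift of 100 kb, and the share fell on each of 22 chromosomes, so GRCh38 was used. The labels and the methods name different antibody suppliers, and the labels describe end repair and adaptor ligation, so both are uncertain. The depth of the libraries is unknown, and 31.7% of RUNX2 and 26.0% of MTA1 peaks had the narrowest width of their list.

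Genes came from RefSeq and starts from a separate promoter list, in which 79.1% of protein-coding genes had a start. That list need not hold every start: the annotated TNFAIP3 and TNIP1 genes begin before their first listed start. Percentiles were computed within each nuclear list, and intervals are exact 95% binomial intervals for counting error only. The counting steps were first tested on simulated lists. The genes, pathway list and motifs were chosen with earlier results of these data known. Pathway genes were named by rule: the 3 with the highest RUNX2 percentile in the window, the 3 with the highest MTA1 percentile, and any with no peak in either list. Genes named by presence or absence of a peak at a start fall outside this rule. Alternatives changed the window, the score minimum, the overlap, the distance to a start, merging of peaks and peaks of the narrowest width. Computations used pandas 2.3.3 and numpy 2.4.6 in Python 3.11.15, with intervals from scipy 1.17.1 and plots from matplotlib 3.10.9.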

Additional observations from a re-analysis of the deposited data

How the results depend on the processing

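Peaks of both lists at a start were found for all 10 genes when peaks of the narrowest width were left out (44.9% of protein-coding genes), when near peaks were merged and when the distance to a start was 1 kb (44.3%), and for 9 at scores of at least the list median (35.4%), where TNIP1 lost its MTA1 peak. With the 10000 highest peaks of each list this held for 2 genes, RELB and TRAF1, against 13.7% of protein-coding genes. That setting left 14 RUNX2 and 16 MTA1 peaks, of which 50% and 43.8% overlapped. At scores of at least the median, 32 MTA1 peaks remained, 90.6% of them overlapping, and 54 RUNX2 peaks, 53.7% of them overlapping. Without peaks of the narrowest width, 53.7% of 67 RUNX2 and 76.6% of 47 MTA1 peaks overlapped. In the score and width settings peaks were dropped from both lists, so a peak could lose its overlap because its partner was dropped. Of the narrowest peaks, 4 of 14 RUNX2 and 11 of 23 MTA1 peaks had overlapped the other list in the main setting. No share over all peaks in the same setting is set beside the overlap shares of this paragraph. Within 10 kb of the genes there were 42 RUNX2 and 33 MTA1 peaks, with 64.3% and 81.8% overlapping, and inside the genes 24 and 20. Requiring an overlap of 50% lowered the shares to 42.0% of RUNX2 and 48.6% of MTA1 peaks. Leaving out peaks at the starts of other protein-coding genes, an alternative chosen after seeing the data, kept 63 RUNX2 and 53 MTA1 peaks, with shares of 57.1% and 69.8%. A stricter NF-kB consensus, also added later, was in 5.91% of all windows, 8.4% of protein-coding genes, 8 of the 16 windows of these genes and 7 of the 9 genes. The lists hold peaks above unknown thresholds of single libraries of unknown depth, so a missing peak may be a weak signal, and the spread between replicates is unknown. No paired analysis was possible because each antibody had 1 library and the result comes from no test.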
